A study of Mus musculus with 27 samples.

Results

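This account follows 9 of the 19690 genes counted in mouse rectum, namely the urea cycle, arginine and polyamine genes Cps1, Otc, Ass1, Asl, Arg1, Arg2, Odc1, Oat and Sat1. They were taken by symbol from the count table, where each had a single row. The set was chosen on measured values of these data, because Cps1 was seen to be low at 1 day and 3 days after irradiation. The levels at 1 day and 3 days are therefore given as a description of the genes, with no test.

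Rectal tissue of 27 mice was sequenced, with 3 mice in each of 9 groups. All were C57BL/6 mice, given in the methods as female C57BL/6J aged 8 to 10 weeks. The 5 irradiated groups received a single dose of 25 Gy of X-rays to the lower pelvis with the rest of the body shielded by lead, and were sampled post-irradiation (PI) at 4 h or 1 day, at 3 days, or at 2 or 8 weeks. The 4 control groups were sham-irradiated and sampled at 4 h, 3 days, 2 weeks or 8 weeks, and the controls at 4 h also served for 1 day. A piece of rectum holds epithelium, muscle, stroma and blood cells at once, so that fewer cells of a type and less RNA per cell cannot be told apart in these libraries. The libraries held between 17966356 and 23281174 counted reads. Epithelial markers were abundant in every group, with a summed level of the 8 genes of the epithelium list between 6099 and 16063 CPM (read counts scaled to a common library size).

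The urea cycle turns ammonia into urea. Carbamoyl phosphate made in mitochondria is joined to ornithine to give citrulline, which is carried to the cytosol, joined to aspartate and cleaved to arginine, and arginase then splits arginine into urea and ornithine. The full cycle runs in liver, whereas the intestinal epithelium uses parts of it to make citrulline and arginine, and macrophages and neutrophils are known for arginase. Ornithine is also the starting point of the polyamines putrescine, spermidine and spermine, small cations that dividing cells need, and of proline and glutamate through ornithine aminotransferase.

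The sequence before the start site is shown for 4 of the genes, Otc and Oat, which were both below their controls at the late times, and Odc1 and Sat1, which were both above them. RefSeq held promoter stretches for 5 of the 9 genes, including Ass1. The 250 bases before the annotated start are given on the strand of the gene, from GRCm38.p6, with motif matches in capitals. On both strands the letters TATAAA were searched for the TATA box and the pentamer CCAAT for the box of that name. The GC box was searched as GGGCGG, and the E-box that factors of the Myc type bind was searched as CACGTG. The core of the cyclic AMP response element was searched as TGACG. The site of the factor AP-1 was searched as TGANTCA. No 2 of these matches overlapped in the stretches shown.
Otc, chrX:10252055-10252304, plus strand: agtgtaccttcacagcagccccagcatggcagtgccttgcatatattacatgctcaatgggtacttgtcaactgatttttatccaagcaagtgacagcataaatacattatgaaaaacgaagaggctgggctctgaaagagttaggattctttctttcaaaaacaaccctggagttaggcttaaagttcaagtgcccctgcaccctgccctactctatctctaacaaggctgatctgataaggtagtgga
Oat, chr7:132576399-132576648, minus strand: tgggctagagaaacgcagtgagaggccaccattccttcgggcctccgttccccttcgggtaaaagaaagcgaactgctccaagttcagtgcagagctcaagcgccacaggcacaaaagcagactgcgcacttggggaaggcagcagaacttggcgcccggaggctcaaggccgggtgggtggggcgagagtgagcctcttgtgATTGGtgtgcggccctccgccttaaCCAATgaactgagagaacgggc
Odc1, chr12:17544623-17544872, plus strand: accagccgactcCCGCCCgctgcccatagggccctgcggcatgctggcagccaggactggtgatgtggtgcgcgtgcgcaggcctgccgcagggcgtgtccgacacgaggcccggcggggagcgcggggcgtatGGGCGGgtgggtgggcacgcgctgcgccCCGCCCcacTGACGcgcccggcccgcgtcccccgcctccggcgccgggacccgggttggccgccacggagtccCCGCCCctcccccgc
Sat1, chrX:155216450-155216699, minus strand: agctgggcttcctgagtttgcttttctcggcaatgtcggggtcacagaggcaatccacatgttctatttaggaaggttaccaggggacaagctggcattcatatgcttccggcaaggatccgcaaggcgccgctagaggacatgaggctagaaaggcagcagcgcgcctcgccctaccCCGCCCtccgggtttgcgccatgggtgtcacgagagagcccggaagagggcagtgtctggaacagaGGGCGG
The Otc stretch held no match to any of the 6 motifs. The Oat stretch held that pentamer on either strand, starting 47 and 22 bases before the start site, a motif present in 33.8% of the 32851 promoter stretches of this length. The Odc1 stretch held 4 GC boxes, starting 238, 116, 88 and 15 bases before the start, and the TGACG core at 79 bases. The Sat1 stretch held 2 GC boxes, at 72 and 6 bases. The GC box was found in 32.7% and the TGACG core in 17.8% of all stretches. Ass1 carried a GC box and the E-box, which 6.02% of all stretches held. The TATA box (12.4% of all stretches) and the AP-1 site (6.75%) had no match in the 5 stretches.

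In the GENCODE annotation of mm9, the build of the deposited counts, all 9 were protein-coding genes. Cps1 (ENSMUSG00000025991) spans chromosome 1 from 67169600 to 67277833 on the plus strand. Otc (ENSMUSG00000031173) spans chromosome X from 9829431 to 9898150 on the plus strand, and Sat1 (ENSMUSG00000025283) spans the same chromosome from 151647675 to 151650992 on the minus strand. Ass1 (ENSMUSG00000076441) lies on chromosome 2 from 31325727 to 31376192 on the plus strand and Asl (ENSMUSG00000025533) on chromosome 5 from 130487128 to 130501002 on the minus strand. Arg1 (ENSMUSG00000019987) lies on chromosome 10 from 24635014 to 24647276 on the minus strand. Arg2 (ENSMUSG00000021125, from 80231764 to 80257288) and Odc1 (ENSMUSG00000011179, from 17551679 to 17558308) both lie on the plus strand of chromosome 12. Oat (ENSMUSG00000030934) lies on chromosome 7 from 139749158 to 139768081 on the minus strand.

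Per transcript length, the polyamine and ornithine genes were the abundant members and the mitochondrial urea cycle genes and the arginases were scarce. In the controls at 4 h, the mean FPKM (fragments per kilobase, scaled to the depth of the library) was 226 ± 47.1 (SD, n = 3) for Sat1, 114 ± 13.4 for Oat, 52.6 ± 8.65 for Odc1, 29.0 ± 3.12 for Ass1 and 18.2 ± 1.75 for Asl. It was 3.56 ± 0.228 for Cps1, 2.69 ± 0.466 for Otc, 0.921 ± 1.42 for Arg1 and 0.838 ± 0.282 for Arg2. In this order no neighbours from Sat1 to Otc overlapped in their 3 libraries, whereas Arg1 overlapped both Otc and Arg2. The order was different in the irradiated mice at late times. By 8 weeks PI, Arg1 had a mean FPKM of 142 ± 114, with libraries between 53.4 and 270.2, and Oat had 77.8 ± 10.9. By 2 weeks PI, Arg1 reached 51.9 ± 28.6 FPKM and Arg2 reached 44.0 ± 51.8 FPKM, which overlapped the libraries of Ass1 at 67.8 ± 20.3 FPKM.

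**Figure D1:**
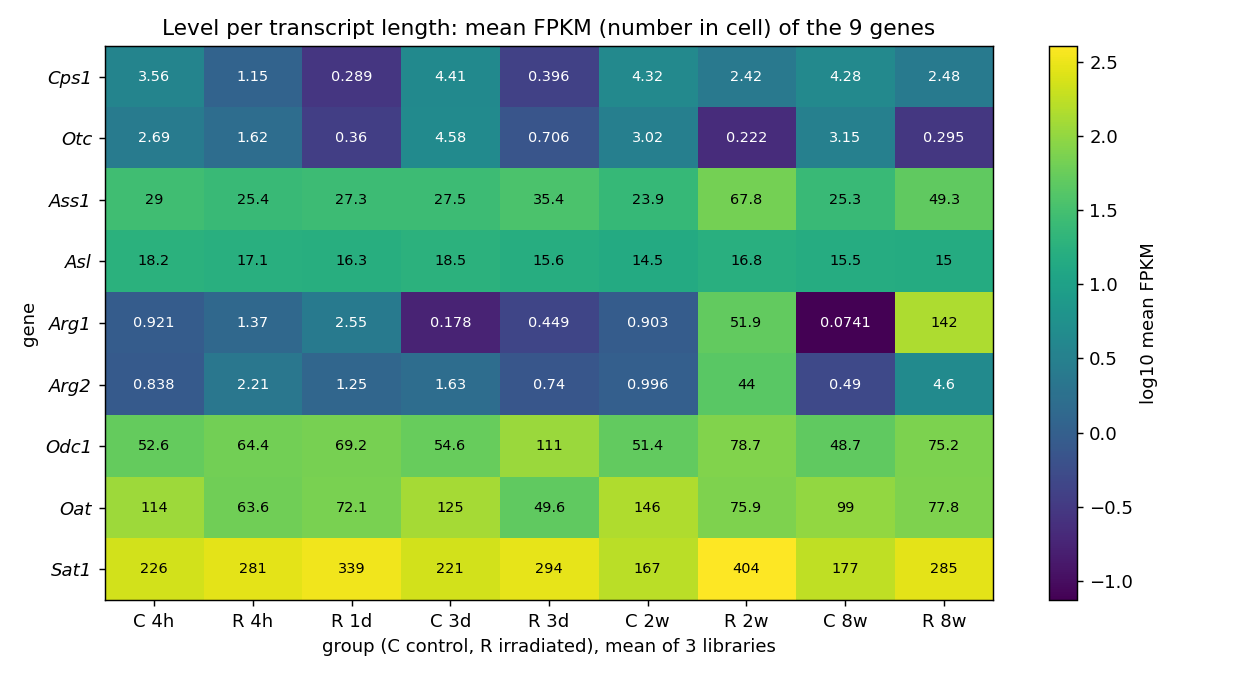
Mean FPKM of the 9 genes (rows) in the 9 groups (columns, C for control and R for irradiated), with the value of each mean of 3 libraries in its cell and the colour giving its log10. Sat1 is the brightest row throughout, from 167 to 404 FPKM, and the Arg1 row goes from 0.0741 FPKM in the controls at 8 weeks to 142 FPKM in the irradiated mice at 8 weeks.

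Cps1 and Otc, the mitochondrial entry of the cycle, were lower in irradiated rectum. Cps1 encodes carbamoyl phosphate synthetase, which makes carbamoyl phosphate from ammonia. Its normalised count in the controls at 4 h was 22.1, 19.3 and 19.7 CPM and in the irradiated mice at 4 h it was 3.74, 10.8 and 5.55 CPM. The groups did not overlap, and Cps1 had already fallen at this time by 1.60 on the log2 scale (SE 0.326, edgeR quasi-likelihood adjusted p = 0.0176). These controls also served for 1 day, a contrast that led to the choice of Cps1, so this p is not independent of that choice. The call was lost without replicate 1 of the controls (adjusted p = 0.0528) or replicate 3 of the irradiated mice (adjusted p = 0.0682). At 1 day PI the 3 libraries held 1.97, 1.82 and 1.17 CPM, the lowest mean of the 9 groups, with a log2 fold change of -3.61 (SE 0.214) against the controls at 4 h. At 3 days PI they held 2.92, 1.99 and 1.496 CPM beside 26.5, 28.8 and 21.2 CPM in the controls, a log2 fold change of -3.59 (SE 0.248). These were the levels that led to the choice of the set. At both times they came from 23 to 58 reads per library.

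At 2 weeks PI, Cps1 stood at 10.7, 20.1 and 10.5 CPM beside 30.3, 26.1 and 19.1 CPM in the controls. One irradiated library lay within the range of the controls, and the log2 fold change of -0.87 (SE 0.309) did not pass the test (adjusted p = 0.0819). It passed with DESeq2 (adjusted p = 0.0437), with all groups in 1 fit (adjusted p = 0.0444) and without replicate 2 of the irradiated mice (adjusted p = 0.00749). In the groups at 8 weeks PI, the irradiated mice held 10.4, 10.3 and 19.2 CPM beside 19.4, 31.6 and 21.8 CPM in the controls, and the highest irradiated library lay just under the lowest control. The log2 fold change was -0.88 (SE 0.293, adjusted p = 0.0490). This call was lost in 12 of 15 alternatives, with adjusted p up to 0.171 without replicate 2 of the controls.

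Otc encodes ornithine transcarbamylase, which joins carbamoyl phosphate to ornithine. At 4 h PI it stood at 4.76, 6.40 and 4.79 CPM beside 8.997, 6.41 and 11.2 CPM in the controls, where the lowest control and the highest irradiated library were about equal. The log2 fold change was -0.73 (SE 0.245, adjusted p = 0.0894), and the test was passed without replicate 2 of the controls (-0.92, adjusted p = 0.0415). At 1 day PI it held 0.403, 2.12 and 1.12 CPM, a log2 fold change of -2.85 (SE 0.488), and at 3 days PI 4.13, 0.847 and 1.15 CPM beside 22.5, 13.9 and 12.5 CPM, a log2 fold change of -3.01 (SE 0.554). No irradiated library reached its controls at either time. The values were -3.53 at 1 day without replicate 2 and -4.03 at 3 days without replicate 1 of the irradiated mice. In the groups at 2 weeks PI, Otc held 0.492, 1.33 and 0.822 CPM beside 11.9, 12.5 and 7.98 CPM in the controls. It had fallen by 3.60 on the log2 scale (SE 0.399, adjusted p = 0.00357). At 8 weeks PI it held 1.07, 0.497 and 1.66 CPM beside 9.16, 8.61 and 12.5 CPM, a fall by 3.23 (SE 0.408, adjusted p = 0.000869). Both late calls held in all 15 alternatives, with adjusted p up to 0.0259 at 2 weeks and 0.0062 at 8 weeks. Otc at 8 weeks PI stood at 1.07 ± 0.580 CPM after 1.22 ± 0.864 CPM at 1 day, whereas Cps1 at 8 weeks stood at 13.3 ± 5.13 CPM after 1.65 ± 0.421 CPM at 1 day (SD, n = 3).

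Markers of the surface of the mucosa moved with these genes at the late times. At 2 weeks PI, 4 of 8 surface colonocyte genes fell and none rose, and their summed level was 3236 to 7894 CPM beside 7964 to 10094 CPM in the controls. By 8 weeks PI, 7 of 8 fell, with 2106 to 5880 CPM beside 13257 to 15184 CPM. At 4 h and 1 day none of the 8 was called and the sums overlapped those of the controls. At 3 days, 4 fell and 1 rose, and the sum was 12751 to 13177 CPM beside 11151 to 12769 CPM. The general epithelium list was lower as well, with sums of 6099 to 10679 CPM beside 11225 to 11849 CPM at 2 weeks, where none of its 8 genes was called, and of 7556 to 9175 CPM beside 12865 to 14864 CPM at 8 weeks, where 6 of 8 fell. The part of these cells in the levels of Cps1, Otc and Oat was not tested. Hepatocyte markers were looked at as well, since both genes are known from liver. Of the 8 genes on that list, 5 had group means of 0.851 CPM or less, with Serpina1a and Fgb at 0 in the controls, and albumin (Alb) had 0.0999 to 2.12 CPM. The other two were higher, Ttr with group means of 17.2 to 60.9 CPM and Cyp2e1 with 0.348 to 41.3 CPM, the latter highest at 8 weeks PI, and both are also made outside the liver. The only hepatocyte gene called higher at any time was 1 of 3 tested at 8 weeks.

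**Figure D2:**
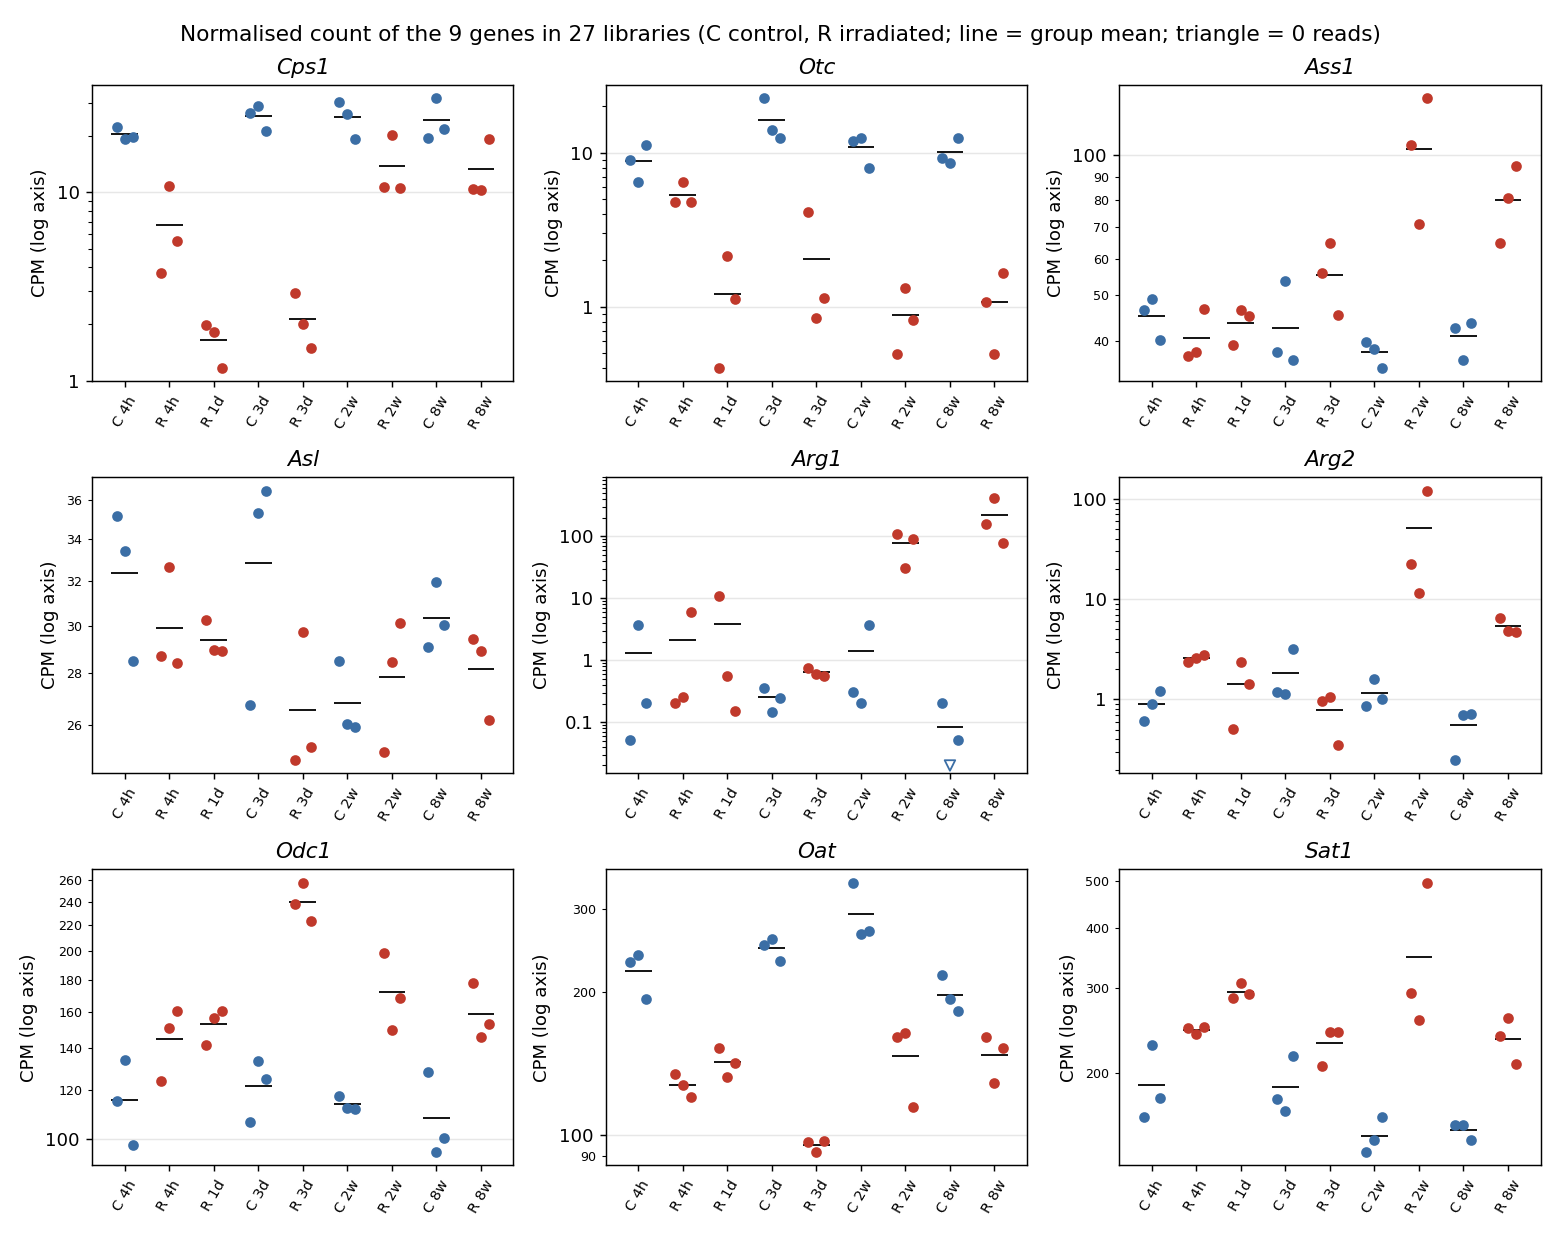
Normalised counts (CPM, log axes) of the 9 genes in the 27 libraries, with controls in blue, irradiated mice in red, a line at each group mean and a triangle for the library with 0 Arg1 reads. Cps1 is lowest at 1 day, 1.17 to 1.97 CPM, and is between 10.3 and 20.1 CPM at 2 and 8 weeks, while Otc stays at or below 1.66 CPM at both of these times.

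Ass1 and Asl, the cytosolic enzymes that turn citrulline into arginine, differed from each other. Ass1, argininosuccinate synthase, held 37.0, 37.8 and 46.8 CPM at 4 h PI beside 46.5, 49.2 and 40.1 CPM in the controls, which overlapped (log2 fold change -0.15, SE 0.127, adjusted p = 0.472). Its log2 fold change was -0.04 (SE 0.112) at 1 day and 0.36 (SE 0.181) at 3 days. By 2 weeks PI it held 105.1, 71.1 and 132.5 CPM beside 39.7, 38.5 and 35.0 CPM. All irradiated libraries lay above all controls, and Ass1 had risen by 1.45 on the log2 scale (SE 0.230, adjusted p = 0.00876). In the groups at 8 weeks PI it held 64.7, 80.8 and 95.0 CPM beside 42.5, 36.4 and 43.7 CPM, a rise by 0.96 (SE 0.151, adjusted p = 0.0023). Both calls held in all 15 alternatives. Asl, argininosuccinate lyase, stayed between 24.7 and 36.5 CPM in all 27 libraries. Its log2 fold change was between -0.32 (SE 0.146, at 3 days) and 0.06 (SE 0.128, at 2 weeks), and it passed no test at 4 h (adjusted p = 0.583), 2 weeks (adjusted p = 0.762) or 8 weeks (adjusted p = 0.380).

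Both arginases were higher at the late times. Arg1, the cytosolic arginase of liver that alternatively activated macrophages also use, was close to absent in most libraries of controls and early times. The controls at 2 weeks held 0.302, 0.201 and 3.67 CPM and the irradiated mice 110.4, 31.1 and 90.9 CPM. The controls at 8 weeks held 0.200, 0 and 0.0509 CPM, a total of 4, 0 and 1 reads, and the irradiated mice 158, 414 and 76.6 CPM. Every irradiated library at these times lay above every control of the series. Arg1 rose by 5.80 on the log2 scale at 2 weeks (SE 1.10, adjusted p = 0.0141) and by 11.21 at 8 weeks (SE 1.01, adjusted p = 0.000219). The size of the second value rests on the 5 control reads and was between 6.75 and 12.72 over the alternatives, all of which kept the call. The value at 2 weeks was between 4.79 and 8.23 over the alternatives, the latter without replicate 3 of the controls, which held 73 of the reads beside 6 and 4 in the others. Its call was lost without replicate 1 of the controls (adjusted p = 0.0588). In both tests the gene passed the filter on low counts through the irradiated libraries, so that a difference was bound to appear and the tests add little to the levels.

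At earlier times Arg1 was uneven among mice. At 4 h it held 0.205, 0.256 and 5.96 CPM beside 0.0511, 3.73 and 0.203 CPM in the controls and was too low to be tested. At 1 day PI it held 10.9, 0.556 and 0.153 CPM, a log2 fold change of 1.55 (SE 1.497). This value was -1.88 without replicate 1 of the irradiated mice and 4.86 without replicate 2 of the controls, so its sign rested on single libraries. At 3 days PI it held 0.755, 0.598 and 0.549 CPM beside 0.359, 0.149 and 0.247 CPM, which is 11 to 15 reads beside 3 to 7 (log2 fold change 1.2998, SE 0.484).

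Markers of squamous epithelium, the keratinised lining of the anal canal and skin, moved with Arg1 in part of these libraries. The summed level of the 10 squamous genes was 8.61 to 19.8 CPM in the controls. It was 58.0 CPM in replicate 3 at 4 h PI and 411 CPM in replicate 1 at 1 day PI, the libraries in which Arg1 stood at 5.96 and 10.9 CPM, and its highest values among the controls, 18.1 and 19.8 CPM, were in the libraries with 3.73 and 3.67 CPM of Arg1. At 3 days PI the sum was 26.3 to 35.4 CPM, above every control, while Arg1 was at 0.549 to 0.755 CPM. Most of this sum was Lor, with a mean of 20.5 CPM beside 1.00 CPM in the controls at 3 days. Of the squamous genes, 1 of 4 tested rose there, beside 10.4% of all genes. At 8 weeks PI, all 10 squamous genes rose against the controls at 8 weeks, beside 21.5% of all genes. The sums were 4183 to 6087 CPM, led by Krt14 and Krt5, keratins of the basal layer. Krt5, Krt1, Trp63, Dsg3, Dsc3 and Krtdap had mean levels of 0.0167 to 0.236 CPM in these controls. They passed the filter on low counts through the irradiated libraries, so their calls add little to the levels. Among the irradiated libraries at 8 weeks the order was reversed, with 414 CPM of Arg1 at the lowest sum and 76.6 CPM at the highest. Krtdap was at 0 in the controls at 3 days, and the other 9 genes had reads in every group of controls. In the groups at 2 weeks PI the sum was 16.4 to 28.9 CPM while Arg1 was at 31.1 to 110.4 CPM. There the macrophage list rose in 9 of 9 genes, with sums of 882 to 2905 CPM beside 107 to 170 CPM, and at 8 weeks in 8 of 9, with 568 to 729 CPM beside 141 to 167 CPM. The part of these cells in the level of Arg1 was not tested.

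Arg2, the mitochondrial arginase, stood at 0.250 to 3.17 CPM in the controls. At 4 h PI it held 2.36, 2.61 and 2.75 CPM beside 0.613, 0.894 and 1.22 CPM, without overlap, and had risen by 1.499 on the log2 scale (SE 0.341, adjusted p = 0.0261). This call rested on 46 to 54 reads beside 12 to 24 and was lost without any 1 of 5 of the 6 libraries (adjusted p from 0.0583 to 0.0884, replicate 3 of the controls being the exception), and with all groups in 1 fit (adjusted p = 0.186). The log2 fold change was 0.66 (SE 0.552) at 1 day and -1.24 (SE 0.570) at 3 days, and single libraries moved both, to 0.09 at 1 day without replicate 2 of the irradiated mice and to -0.57 at 3 days without replicate 3 of the controls. At 2 weeks PI, Arg2 held 22.4, 11.4 and 120.9 CPM beside 0.856, 1.61 and 1.00 CPM, and rose by 5.47 (SE 1.02, adjusted p = 0.0135). By 8 weeks PI it held 6.50, 4.82 and 4.73 CPM beside 0.250, 0.705 and 0.713 CPM, a rise by 3.24 (SE 0.410, adjusted p = 0.000876). All irradiated libraries were above all controls at both times. The call at 8 weeks held in all 15 alternatives, and that at 2 weeks was lost without any 1 of the controls, with adjusted p from 0.0522 to 0.0637. The controls at 8 weeks held only 5, 14 and 14 reads. Arg2 passed the filter on low counts there through the irradiated libraries, so the test at 8 weeks adds little to the levels.

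At 2 weeks PI, but not at 8 weeks, neutrophil markers were highest in the library with the most Arg2. Their summed level at 2 weeks was 1060, 4023 and 21269 CPM in the order of the libraries with 11.4, 22.4 and 120.9 CPM of Arg2, beside 110 to 119 CPM in the controls, where most of the sum was Ly6g. Of the 8 neutrophil genes, 7 rose at 2 weeks and 7 rose and 1 fell at 8 weeks, where the sums were 925, 2909 and 647 CPM in the libraries with 6.50, 4.82 and 4.73 CPM of Arg2. Among all genes, 16.5% rose at 2 weeks, and 21.5% rose and 16.5% fell at 8 weeks. S100a9, Csf3r, Cxcr2, Mmp8 and Retnlg had mean levels of 0.0167 to 0.454 CPM in the controls at 2 and 8 weeks. They passed the filter on low counts through the irradiated libraries, so their calls add little to the levels. The macrophage sums stood in the same order as Arg2 at 2 weeks, at 882, 2741 and 2905 CPM. At 8 weeks they stood in the reverse order, at 568, 643 and 729 CPM in the libraries with 6.50, 4.82 and 4.73 CPM of Arg2. The part of neutrophils and macrophages in the level of Arg2 was not tested.

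**Figure D3:**
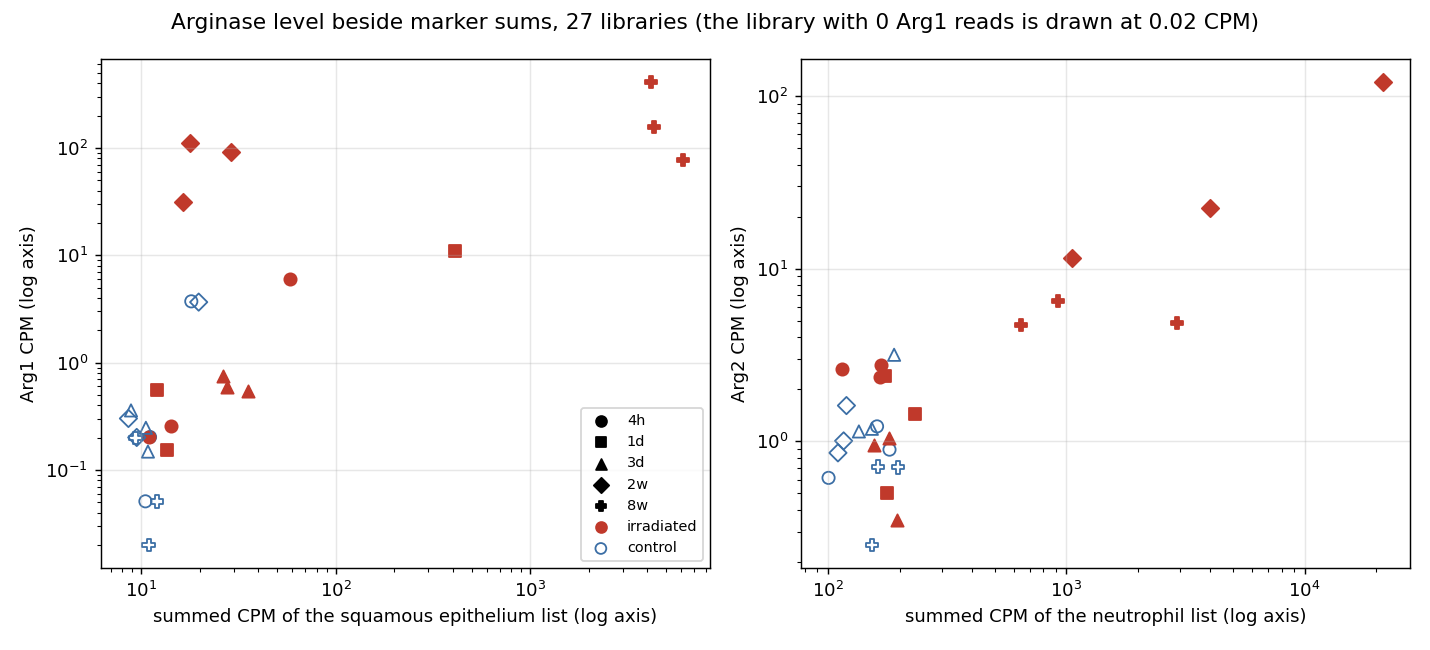
Arg1 beside the summed squamous markers (left) and Arg2 beside the summed neutrophil markers (right) in the 27 libraries, in CPM on log axes, with filled symbols for irradiated mice and open symbols for controls. The libraries at 2 weeks hold 31.1 to 110.4 CPM of Arg1 at squamous sums of 16.4 to 28.9 CPM, and those at 8 weeks lie at 4183 to 6087 CPM.

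Oat, ornithine aminotransferase, which links ornithine with glutamate and proline, was lower in irradiated rectum at each time. It held 134, 127 and 119.9 CPM at 4 h PI beside 232, 240.2 and 194 CPM in the controls. The groups were well apart, and Oat had fallen by 0.80 on the log2 scale (SE 0.110, adjusted p = 0.0039), a call that held in all 15 alternatives. Markers of crypts and cycling cells fell at this time in 5 of 7 genes tested and rose in 1, with sums of 65.6 to 122 CPM beside 258 to 396 CPM, and their part was not tested. At 1 day PI Oat held 153, 133 and 141 CPM (log2 fold change -0.63, SE 0.111). At 3 days PI it held 96.7, 91.9 and 97.1 CPM beside 251, 259.8 and 232 CPM, its lowest level of the series (log2 fold change -1.39, SE 0.0952).

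At 2 weeks PI, Oat held 161, 164 and 115 CPM beside 341, 266 and 269 CPM, and had fallen by 0.99 (SE 0.190, adjusted p = 0.0144). In the groups at 8 weeks PI it held 161, 128 and 153 CPM beside 217, 193 and 182 CPM, a fall by 0.43 (SE 0.124, adjusted p = 0.0285). No irradiated library reached the controls at either time. The call at 2 weeks was lost without replicate 1 or 3 of the controls (adjusted p = 0.0664 and 0.0545). The call at 8 weeks was lost in 8 of 15 alternatives, with adjusted p up to 0.102 without replicate 1 of the controls.

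Odc1 and Sat1, which act at opposite ends of polyamine metabolism, were both higher in irradiated rectum. Odc1 encodes ornithine decarboxylase, the first and rate-limiting enzyme of polyamine synthesis. It held 124, 150.5 and 160.2 CPM at 4 h PI beside 115, 134 and 97.7 CPM in the controls, where the groups overlapped (log2 fold change 0.33, SE 0.143, adjusted p = 0.169). At 1 day PI it held 141, 156 and 161 CPM (log2 fold change 0.41, SE 0.124). At 3 days PI it reached its highest level of the series, 238, 257 and 224 CPM beside 106, 134 and 125 CPM (log2 fold change 0.96, SE 0.117). By 2 weeks PI it held 198, 149 and 168 CPM beside 117, 112 and 112 CPM and rose by 0.60 (SE 0.138, adjusted p = 0.0236). At 8 weeks PI it held 178, 146 and 153 CPM beside 128, 95.4 and 100.5 CPM, a rise by 0.55 (SE 0.141, adjusted p = 0.0189). All irradiated libraries exceeded their controls at 1 day and at each later time. The call at 2 weeks was lost without any 1 of the controls (adjusted p from 0.0904 to 0.0950) and that at 8 weeks without replicate 2 or 3 of the controls (adjusted p = 0.0888 and 0.0839).

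Sat1 encodes spermidine/spermine acetyltransferase, which marks polyamines for breakdown and export. It held 248, 240.4 and 249 CPM at 4 h PI beside 162, 228 and 178 CPM in the controls (log2 fold change 0.38, SE 0.131, adjusted p = 0.0968). The groups did not overlap, but the test was not passed. It was passed with DESeq2 (adjusted p = 0.0453) and without replicate 2 of the controls (adjusted p = 0.0167). At 1 day PI it held 287, 307 and 291 CPM (log2 fold change 0.65, SE 0.132) and at 3 days PI 207, 244 and 243 CPM beside 176, 167 and 217 CPM, with overlap (log2 fold change 0.29, SE 0.136). In the groups at 2 weeks PI, Sat1 held 293, 257 and 496 CPM beside 137, 145 and 162 CPM, a rise by 1.24 (SE 0.261, adjusted p = 0.0187). By 8 weeks PI it held 239, 259 and 209 CPM beside 156, 156 and 146 CPM, a rise by 0.62 (SE 0.109, adjusted p = 0.00379). The irradiated libraries lay above the controls at both times. The call at 8 weeks held in all 15 alternatives, and that at 2 weeks was lost without any 1 of the controls (adjusted p from 0.0662 to 0.0842).

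**Figure D4:**
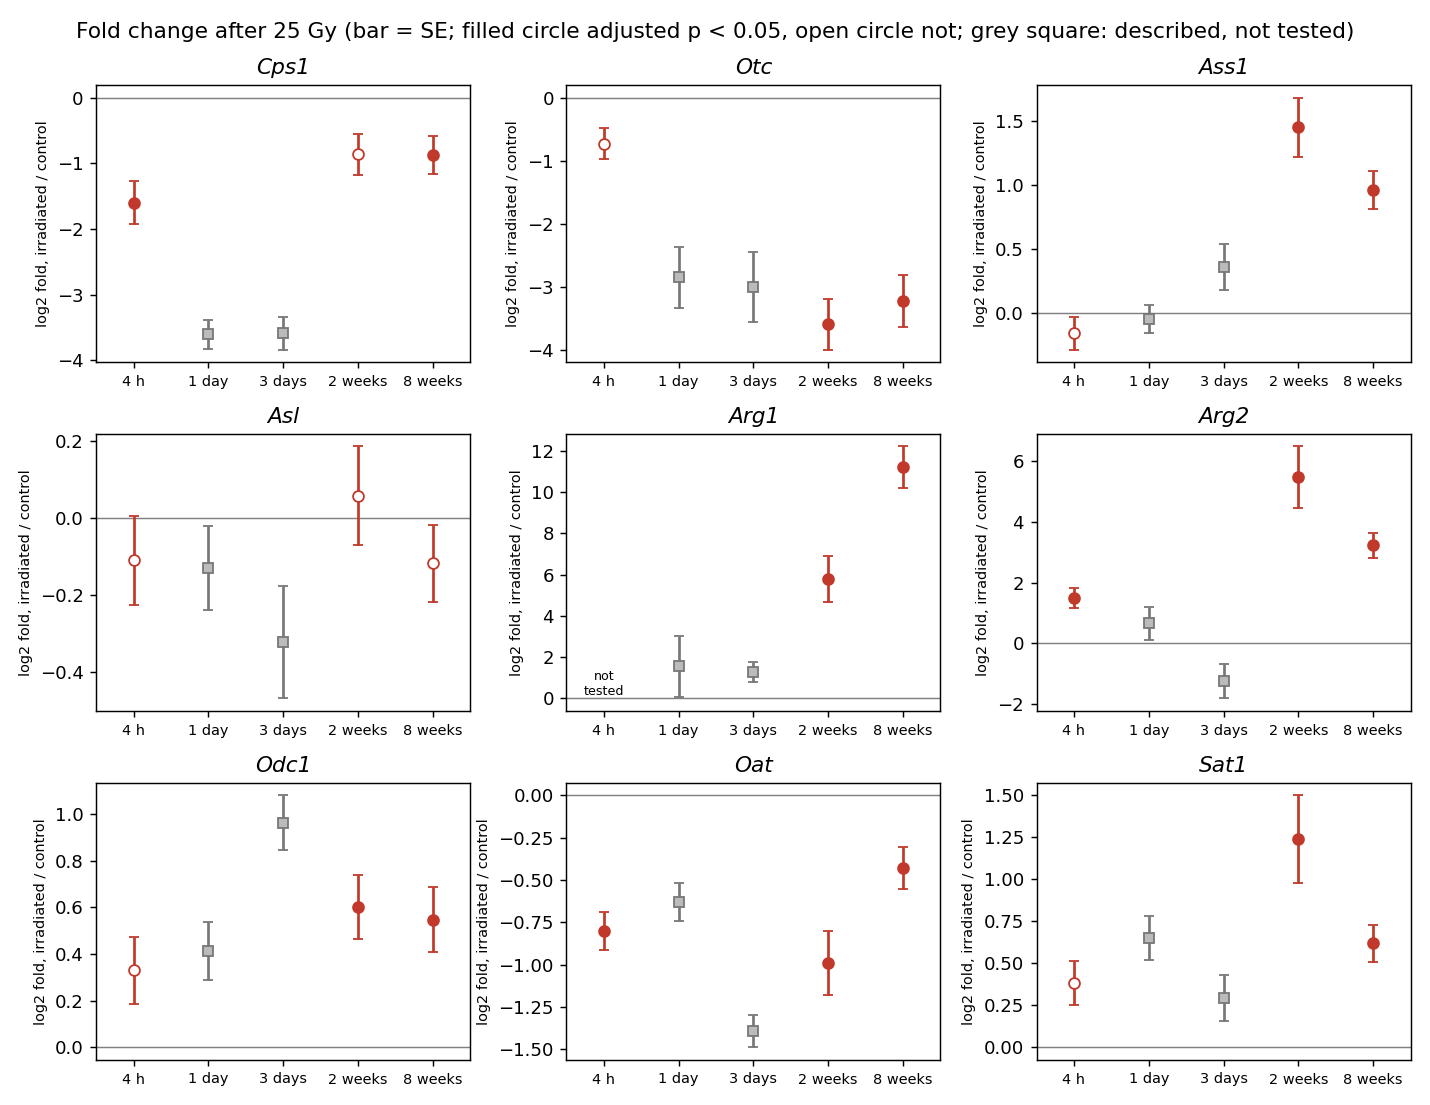
Log2 fold change of irradiated mice against controls (points, with SE bars) for the 9 genes at the 5 times, with filled circles for an adjusted p under 0.05, open circles for other tests and grey squares for the times that were described without a test. Otc is at -3.60 at 2 weeks and -3.23 at 8 weeks, Oat is below 0 and Odc1 and Sat1 are above 0 throughout, and the vertical axes differ among panels.

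The calls among the genes were counted beside those among all genes tested. At 4 h, 8 of the 9 genes could be tested, 1 rose (Arg2) and 2 fell (Cps1 and Oat), beside 5.78% of all genes tested that rose and 5.72% that fell. The call of Cps1 is not independent of its choice, which used the same controls. At 2 weeks, 5 of 9 rose and 2 fell, beside 16.5% and 9.3% of all genes. At 8 weeks, 5 of 9 rose and 3 fell, beside 21.5% and 16.5%. Arg1 is among the genes that rose at both times, and without it 4 of 8 rose. Arg2 is also among them, and at 8 weeks it passed the filter on low counts through the irradiated libraries. Among all genes, 1.97% were higher and 2.03% lower at 1 day, and 10.4% and 10.1% at 3 days. The 9 genes are not counted at these times, since the set was chosen on these contrasts. The median log2 fold change of the genes was -0.13 at 4 h, 0.60 at 2 weeks and 0.55 at 8 weeks, beside medians of all genes of -0.00488, -0.00154 and 0.0102. The counts depended on single libraries. At 4 h, 1 gene was called without replicate 1 of the controls or without replicate 3 of the irradiated mice. At 2 weeks 2, 4 and 3 genes were called without replicate 1, 2 and 3 of the controls, and at 8 weeks 5 without replicate 2 or 3 of the controls.

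The genes were also compared among the sham-irradiated groups. None of the 8 genes tested was called in the controls at 3 days, 2 weeks or 8 weeks against those at 4 h, beside 0%, 6.61% and 2.82% of all genes (edgeR). At an unadjusted p under 0.05, 2299 genes differed between the controls at 3 days and 4 h, and DESeq2 called 504 of all genes there and none of the 9. Arg2 had the largest fitted difference, a log2 fold change of 1.01 at 3 days (SE 0.515, adjusted p = 0.378), and stood at -0.70 at 8 weeks (SE 0.488, adjusted p = 0.417). Otc had the smallest p of the 9 at 3 days (0.87, SE 0.279, adjusted p = 0.229) and Oat at 2 weeks (0.41, SE 0.130, adjusted p = 0.0936). DESeq2 called Oat at 2 weeks (adjusted p = 0.0344), where the controls were thus higher than those at 4 h by that tool alone.

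Whether the response differed between times was tested with the interaction of treatment and time. Between 4 h and 2 weeks, 3 of the 9 genes were called, beside 29.6% of all genes, so that this share was near that of all genes. The radiation effect on Otc was 2.91 lower on the log2 scale at 2 weeks (-2.91, SE 0.475, adjusted p = 0.00191), that on Ass1 was 1.56 higher (SE 0.270, adjusted p = 0.00258) and that on Arg2 was 3.93 higher (SE 1.10, adjusted p = 0.0218). For Cps1 the difference was 0.70 (SE 0.510, adjusted p = 0.318) and for Arg1 5.05 (SE 1.95, adjusted p = 0.0709). Between 2 and 8 weeks none of the 9 was called, beside 1.28% of all genes. Arg1 had the smallest p, with a difference of 5.43 (SE 1.81, adjusted p = 0.174, unadjusted p = 0.0121), and Oat was at 0.57 (SE 0.227, adjusted p = 0.242, unadjusted p = 0.0287). DESeq2 called Arg1 there (adjusted p = 0.0386). The size of the Arg1 difference rests on few control reads, 6, 4 and 73 at 2 weeks and 4, 0 and 1 at 8 weeks. The irradiated libraries of the 2 times overlapped, at 31.1 to 110.4 CPM and 76.6 to 414 CPM. In edgeR Arg1 passed the filter on low counts through the irradiated libraries, so that its interaction tests add little to the levels.

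The pathways hold 56 other genes, taken as a list of 11 roles. Of these, 6 of 50 tested were called at 4 h (2 rose, 4 fell), beside 1657 of 14414 genes in all. At 1 day 2 of 51 were called (1 each way), beside 576 of 14390, and at 3 days 17 of 50 (9 rose, 8 fell), beside 2968 of 14449. At 2 weeks 14 of 52 were called (12 rose, 2 fell), beside 3815 of 14791, and at 8 weeks 27 of 52 (20 rose, 7 fell), beside 5739 of 15107. In both directions together, the shares of the list at 4 h, 1 day and 2 weeks were 12%, 3.92% and 26.9%. These were near the shares of all genes, so nothing is read from them. At 3 days and 8 weeks the shares of the list were 34% and 51.9%. The percentages of all genes in each direction are given above. The median log2 fold change of the list was 0.01, 0.03 and 0.07 at the early times, 0.32 in the comparison at 2 weeks and 0.35 in that at 8 weeks. The counts moved by over 1.5 times when some libraries were left out. At 4 h, 2 were called without replicate 1 of the controls. At 1 day 1 was called without replicate 1 or 3 of the controls or replicate 3 of the irradiated mice and 4 without replicate 2 of the controls. At 3 days, 10, 10 and 11 were called without replicate 1, 2 and 3 of the irradiated mice. At 2 weeks 5, 6 and 5 were called without replicate 1, 2 and 3 of the controls and 25 without replicate 2 of the irradiated mice, and at 8 weeks 15 without replicate 2 of the controls. The counts at 3 days are without a replicate block, with which 23 were called.

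Around the mitochondrial entry, Nags, which makes the activator that Cps1 needs, fell by 2.62 on the log2 scale at 2 weeks (SE 0.330, adjusted p = 0.00492) and by 2.30 at 8 weeks (SE 0.387, adjusted p = 0.00308). It was scarce, at 0.338 to 0.492 CPM beside 2.21 to 2.61 CPM at 2 weeks. Nags passed the filter on low counts there through the controls, so the test at 2 weeks adds little to the levels. The aspartate carriers Slc25a13 at 4 h (-0.49, SE 0.104, adjusted p = 0.0198) and Slc25a12 at 3 days (-0.38, SE 0.108, adjusted p = 0.041) were the other calls among the 4 genes of this role that could be tested. Cad, which makes carbamoyl phosphate for pyrimidines, rose at 3 days by 0.87 (SE 0.217, adjusted p = 0.026), when Cps1 was low.

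Arginine transport and creatine genes changed in both directions, whereas calls among nitric oxide genes were all higher. Slc7a1, the main carrier of arginine into cells, rose by 1.03 at 4 h (SE 0.225, adjusted p = 0.0227), with 79.9 to 132 CPM beside 36.6 to 62.1 CPM, and by 0.63 at 3 days (SE 0.171, adjusted p = 0.0349). Slc7a6, a basic amino acid carrier, rose at 3 days, 2 weeks and 8 weeks by 1.25, 1.32 and 1.45. Slc7a9, a subunit of the apical carrier of basic amino acids, fell by 0.94 at 3 days, rose by 1.33 at 2 weeks and fell by 1.59 at 8 weeks, and its effect differed between 2 and 8 weeks (-2.91, SE 0.609, adjusted p = 0.0458). Of the 5 nitric oxide genes tested, 4 rose at 2 weeks and 4 at 8 weeks. Ddah1, which degrades the methylarginines that inhibit nitric oxide synthases, rose by 1.63 at 3 days (SE 0.230, adjusted p = 0.00298), 3.58 at 2 weeks (SE 0.161, adjusted p = 0.00227) and 3.16 at 8 weeks (SE 0.193, adjusted p = 5.31e-05). Nos2, the inducible nitric oxide synthase, held a lowest, median and highest level of 23.6, 83.2 and 2811 CPM at 2 weeks PI beside 0.905, 1.16 and 1.81 CPM, and rose by 9.55 (SE 2.17, adjusted p = 0.0232), with a single library far above the others. At 8 weeks it rose by 3.41 (SE 0.382, adjusted p = 0.000524). Nos3, the endothelial synthase, rose by 3.02 and 1.88 at 2 and 8 weeks. All 6 endothelium markers rose at both times too, with sums of 417 to 678 CPM beside 86.2 to 131 CPM at 2 weeks and of 180 to 333 CPM beside 85.7 to 141 CPM at 8 weeks, and their part in the level of Nos3 was not tested. Gatm, which uses arginine for creatine, fell by 1.40 at 4 h, 1.52 at 1 day and 1.64 at 3 days and rose by 1.12 at 2 weeks and 0.98 at 8 weeks, where its controls at 8 weeks were themselves lower than those at 4 h (-1.09, SE 0.159, adjusted p = 0.023).

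On the proline side, Aldh18a1, which makes pyrroline-5-carboxylate from glutamate, rose by 0.80 at both 4 h and 8 weeks, by 0.53 at 3 days and by 0.73 at 2 weeks, and Pycr1, which makes proline from it, rose by 1.29 at 2 weeks and 1.72 at 8 weeks. Aldh4a1, which degrades proline, rose by 0.79 at 1 day (SE 0.0844, adjusted p = 0.00169). Other genes of this branch fell. Pycrl, a reductase related to Pycr1, fell by 0.83 at 4 h (SE 0.0967, adjusted p = 0.00192), by 0.82 at 3 days and by 0.79 at 8 weeks, and Glul, glutamine synthetase, fell by 0.52 at 3 days (SE 0.113, adjusted p = 0.0155). Of 10 genes of the branch tested, 2 rose and 3 fell at 3 days, and 3 rose and 2 fell at 8 weeks. Within polyamine synthesis, Srm, spermidine synthase, rose by 0.88 at 3 days (SE 0.159, adjusted p = 0.00804) and 0.78 at 8 weeks (SE 0.217, adjusted p = 0.0249), and Mtap, which recycles the by-product methylthioadenosine, rose by 0.93 and 1.22 at these times. At 2 weeks none of the 4 synthesis genes and none of the 3 breakdown genes passed the test, with Smox at 40.0 to 254 CPM beside 24.02 to 28.2 CPM in the controls. Smox, spermine oxidase, rose by 0.66 at 3 days (SE 0.128, adjusted p = 0.0107) and 0.99 at 8 weeks (SE 0.197, adjusted p = 0.0063), while Paox, polyamine oxidase, fell by 0.67 at 3 days and rose by 0.38 at 8 weeks. Of the antizymes, which bind Odc1 and send it to degradation, Oaz2 rose by 0.45 at 8 weeks (SE 0.143, adjusted p = 0.0413) and Oaz3 fell by 4.06 (SE 0.901, adjusted p = 0.0103), and Oaz1 and the inhibitor Azin1 passed no test at any time.

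**Figure D5:**
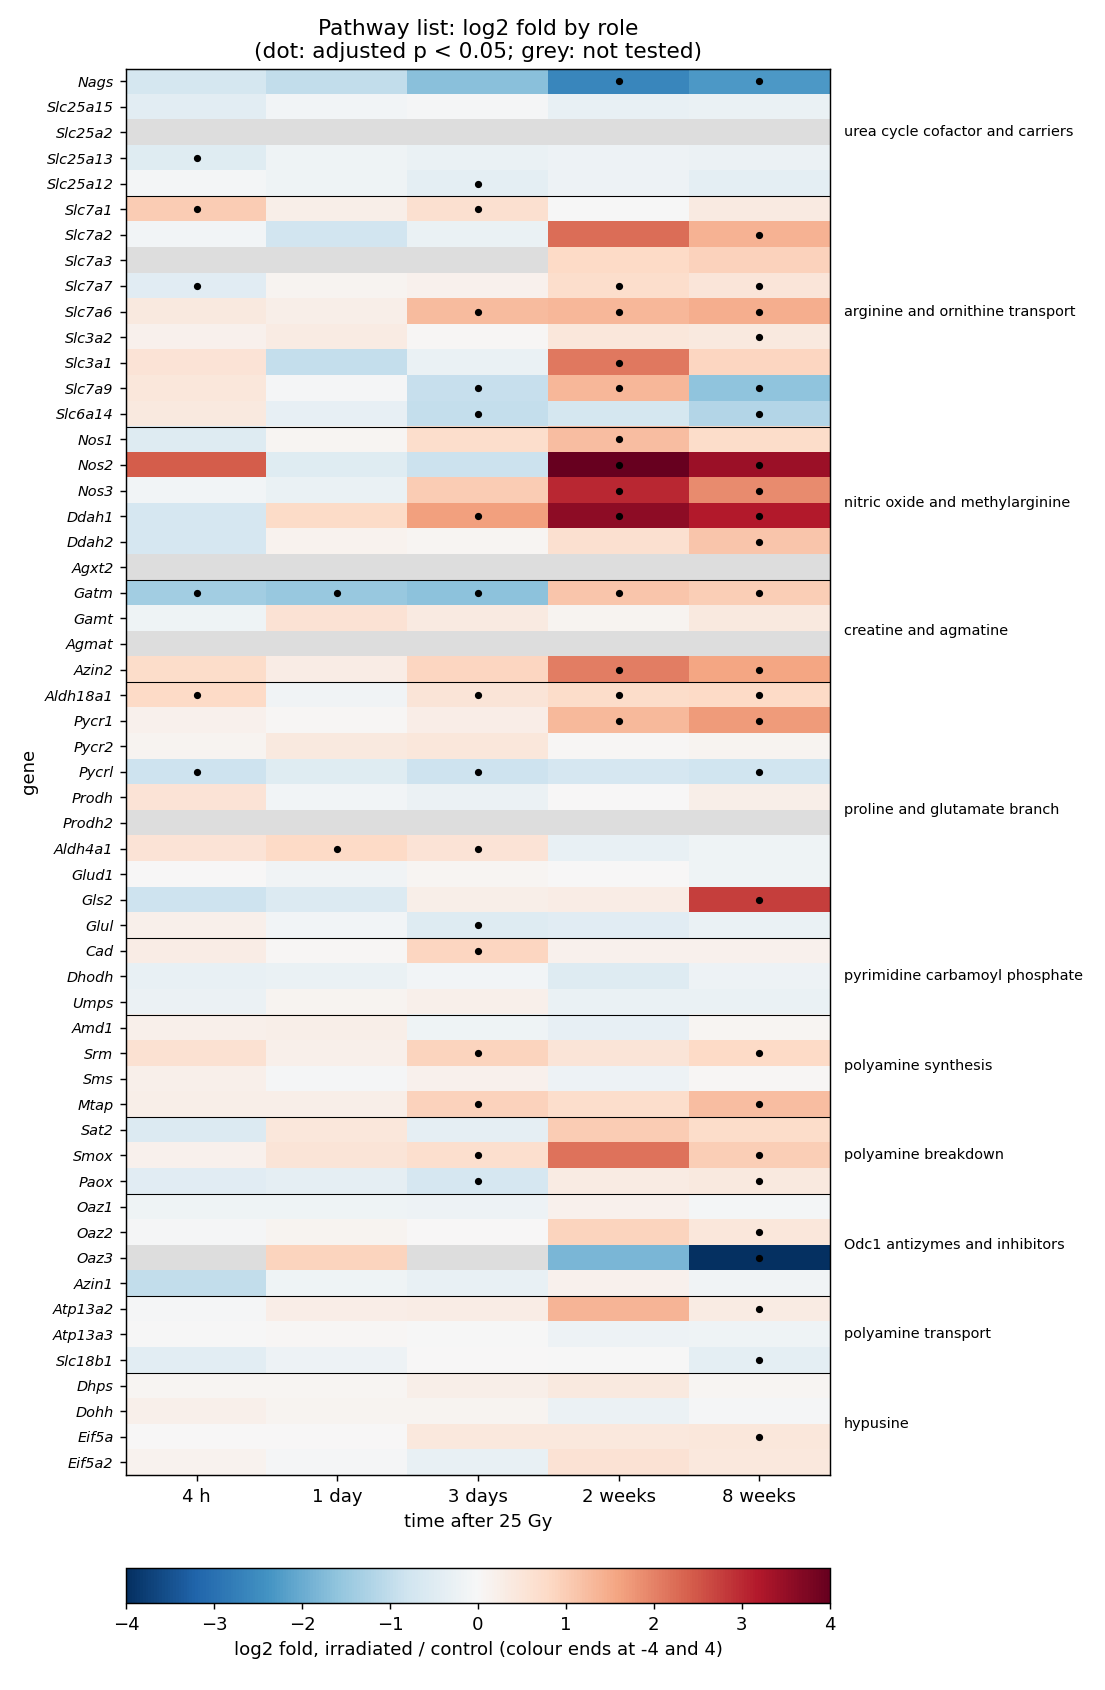
Log2 fold change of other genes of the pathways (rows, by role) at the 5 times (columns), from blue (lower) to red (higher), with a dot for an adjusted p under 0.05 and grey for genes that were not tested. The nitric oxide rows are red at the late times, with Ddah1 at 3.58 and 3.16, and Nos2 at 2 weeks (9.55) lies beyond the end of the colour scale at 4.

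Some genes outside the lists had level patterns close to those of Cps1, Arg1 and Odc1, measured by Pearson's r of log2 CPM over the 27 libraries among 14670 genes. These values describe libraries that share treatment and time within groups. For Cps1 they were Fam46c (r = 0.873), Pyroxd2 (0.848) and Aldoc (0.847). The mean level of Fam46c was 6.41 ± 0.659 CPM at 1 day PI beside 22.9 ± 6.83 CPM in the controls (SD, n = 3). For Arg1 they included Serpinb2 (0.967) and Sptssb (0.941), and Serpinb2 held 14.2 ± 8.18 CPM at 2 weeks PI and 23.7 ± 17.6 CPM at 8 weeks PI, with group means of 0.322 CPM or less in all other groups. For Odc1 they were Cd81 (0.912), Gpx2 (0.886) and Gusb (0.884).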

How the data were processed

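RNA was measured by sequencing of poly(A) libraries (NEBNext Ultra RNA kit) of rectal tissue from 27 mice. Reads were trimmed with fastp 0.18.0, aligned to mm9 with HISAT2 and assembled with StringTie 1.3.1, and expression was estimated with RSEM, per the methods and the submitters' processing notes. The authors deposited raw read counts, whole numbers with no scaling, together with FPKM values of each gene. Not given in the sources used here are the counting program, its annotation and its use of strand, so reads of overlapping or antisense genes cannot be told apart. The gene length column was not used in a test. Every column of sample values was assigned to its sample.

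Samples were grouped by their labels, with 1 mouse as 1 replicate. The 9 genes, the lists and the tests were chosen with earlier results of these data known. The quasi-likelihood test of edgeR 4.0.16 (R 4.3.3, TMM scaling, filterByExpr) was run on the counts of the groups in each comparison, with Benjamini-Hochberg adjustment over all genes tested. There were 10 comparisons. A gene rose or fell at an adjusted p under 0.05, and SE is the standard error of the log2 fold change. CPM were scaled by TMM over all libraries. Named genes were all 9 members, for the other pathway genes up to 2 per role, direction and comparison with the smallest p and the polyamine and nitric oxide roles, and the 3 genes most correlated with Cps1, Arg1 and Odc1. Some genes that this rule names are not reported here. Slc7a9, outside this rule at 2 weeks, was named after its values were seen. Marker lists were described by counts and summed CPM.

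Alternatives were DESeq2 size factors, DESeq2 1.42.0, 2 other filters on low counts, limma 3.58.1 on log2(FPKM + 1) and log2(FPKM + 0.1), all groups in 1 fit, all controls for 1 day, a replicate block, and each replicate left out. The tests were tried on simulated counts. No 2 libraries of a group were within sampling noise of each other. Same-numbered libraries deviated together only at 3 days (r = 0.280, 0.284 and 0.403, beside at most 0.0569 for other combinations). The labels name no pairs of mice, so whether the numbers pair the samples there is not known. The values given for 3 days are from the fit without the block, and the block was run as an alternative. With 3 libraries a group an exact permutation test could reach no p below 0.1, so the tests rest on the spread shared across genes. Depth was 17966356 to 23281174 reads per library, which makes Arg1 and Arg2 in the controls values of few reads. Promoter stretches came from RefSeq (GRCm38.p6) and positions from GENCODE M1 (mm9), and figures were drawn in Python with matplotlib.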

Additional observations from a re-analysis of the deposited data

Results flagged for a closer look

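The radiation effect differed between 4 h and 2 weeks for 3 of the 9 genes, by a test of the interaction of treatment and time, beside 29.6% of all genes. The share of the 9 was near that of all genes, so nothing is read from the count. For Otc the log2 effect at 2 weeks minus that at 4 h was -2.91 (SE 0.475, edgeR adjusted p = 0.00191), and every one of 17 alternatives kept the call, with adjusted p up to 0.00848. For Ass1 it was 1.56 (SE 0.270, adjusted p = 0.00258), also kept in all 17, with adjusted p up to 0.0134. For Arg2 it was 3.93 (SE 1.10, adjusted p = 0.0218), and this call was lost with a replicate block (adjusted p = 0.0506) and without replicate 3 of the controls at 4 h (0.0612) or replicate 1 or 3 of the controls at 2 weeks (0.0512 and 0.0517).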

How the results depend on the processing

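Over all alternatives the folds of the 9 genes kept their direction where a call had been made, and no called value reversed. Of 1324 single folds recomputed, 1238 were unchanged in call or, at 1 day and 3 days, moved by less than the SE of the main fold. Of the others, 47 lost and 14 gained a call, and 25 at 1 day and 3 days moved by more. The number of pathway genes called went from 6 to 10 at 4 h with DESeq2, from 2 to 4 at 1 day with DESeq2 and to 1 with log2(FPKM + 1) without a filter or with the replicate block, from 17 to 11 at 3 days with log2(FPKM + 1) and to 10 without a filter, and from 14 to 9 at 2 weeks with log2(FPKM + 1) without a filter and to 28 with all groups in 1 fit. DESeq2 called 1 member, Oat, between the controls at 2 weeks and 4 h, and 1, Arg1, between the effects at 8 and 2 weeks, where edgeR called 0. The causes of these shifts were not tested, except that all groups in 1 fit and DESeq2 use other estimates of the spread. When replicates were left out, the members called ranged from 1 to 4 at 4 h, 2 to 8 at 2 weeks and 5 to 7 at 8 weeks. They ranged from 2 to 5 for the difference between 2 weeks and 4 h. The pathway genes called ranged from 2 to 7 at 4 h, 1 to 4 at 1 day, 10 to 17 at 3 days, 5 to 25 at 2 weeks and 15 to 27 at 8 weeks. With 2 libraries in a group, the spread is assumed to be that of the others.

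With the replicate number as a block, 23 pathway genes were called at 3 days in place of 17. The block took the members called from 7 to 6 at 2 weeks (Odc1, adjusted p = 0.0590) and from 3 to 2 for the difference between 2 weeks and 4 h. No other call among the members changed with it, leaving aside 1 day and 3 days, where the members are not tested. Over all genes, the calls at 2 weeks went from 3815 to 2518 with the block, and those at 1 day from 576 to 1157 with DESeq2. Arg1 is limited by depth in the controls, where it had 0 to 75 reads.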
